A study of Mus musculus with 14 samples.

Results

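The microRNAs miR-204 (assay mmu-miR-204) and miR-211 (assay mmu-miR-211) are paralogues with the same seed, and they are 2 of the 375 microRNA assays on a TaqMan rodent microRNA card, a plate of real-time PCR assays for known small RNAs. Both were picked by the name of their assay, because earlier results of these arrays showed them at different levels in allogeneic and syngeneic transplants. Their values in that comparison are therefore given as a description, with no test. MicroRNA was measured in mice with a heterotopic heart transplant, on 14 arrays in 2 tables, one of hearts and one of lymphocytes, and each array held pooled RNA of 3 animals. The syngeneic hearts were C57BL/6 hearts placed in C57BL/6 recipients and the allogeneic hearts, labelled as rejecting, were BALB/c hearts placed in C57BL/6 recipients, both taken on day 7 (3 pools each). Graft infiltrating lymphocytes (GILs) came from the same 2 kinds of transplant on day 5 (3 pools each). A pool of normal BALB/c hearts and a pool of peripheral blood mononuclear cells (PBMC) from C57BL/6 mice without a transplant, 1 array each, were the calibrators. Nothing in the labels says that the pools of a group came from separate experiments, so a p-value here measures the spread between pools.

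MicroRNAs guide silencing proteins to messenger RNAs, and the seed near the 5′ end sets most of the pairing, so paralogues that share a seed are predicted to share most targets. Mir204 lies in an intron of Trpm3 and Mir211 in an intron of Trpm1, genes for cation channels. miR-211 is known from pigment cells, in which the factor MITF drives Trpm1, and miR-204 from the retinal pigment epithelium and from mesenchymal cells, in which Runx2 is one of its targets.

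The mature sequences show how close the assays' targets are. They are given 5′ to 3′ from RefSeq on GRCm38.p6, with the seed (bases 2 to 8) in capitals. The assay names carry no arm, and the older unnumbered names are taken here for the 5p arm. miR-204-5p lies at chr19:22750610-22750631 and miR-211-5p at chr7:64205831-64205852, both on the plus strand.
mmu-miR-204-5p: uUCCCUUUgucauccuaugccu
mmu-miR-211-5p: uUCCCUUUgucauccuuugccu
The 22 bases are identical at 21 positions and the difference is A17U, counted from 1 at the 5′ end, with the miR-204 base first. The first 16 bases, seed included, are the same. Of 1679 mature mouse microRNAs in the RefSeq table, 3 carry the seed UCCCUUU, and the card holds 2 of them. The third, miR-7670-3p, has no assay there.

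The hairpins differ far more than the mature strands, and are shown with the 5p strand in capitals. Mir204 spans chr19:22750605-22750672 within Trpm3, and Mir211 spans chr7:64205806-64205911 within Trpm1, both on the plus strand.
Mir204: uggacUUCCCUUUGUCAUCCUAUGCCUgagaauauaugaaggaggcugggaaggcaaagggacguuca
Mir211: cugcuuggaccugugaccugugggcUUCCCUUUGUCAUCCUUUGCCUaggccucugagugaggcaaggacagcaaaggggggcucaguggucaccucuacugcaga
The hairpins are 68 and 106 bases long. Their 3p strands, read from the same table without gaps, are identical at 14 of 21 positions.

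Despite the near identity of the sequences, the assays gave different detection patterns over the 14 arrays. The threshold cycle (Ct) is the PCR cycle at which a well crosses the detection threshold, so an earlier cycle means more template, with 1 cycle worth roughly 1 log2 unit. A well with no such cycle is listed as undetermined. miR-204 had a Ct on 13 arrays, all but the PBMC array. miR-211 had a Ct on 5 arrays, namely PBMC, 3 allogeneic GIL pools and 1 syngeneic heart pool. Both were measured on 4 arrays, miR-204 alone on 9 (6 hearts and 3 syngeneic GIL pools) and miR-211 alone on 1 (PBMC).

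**Figure D1:**
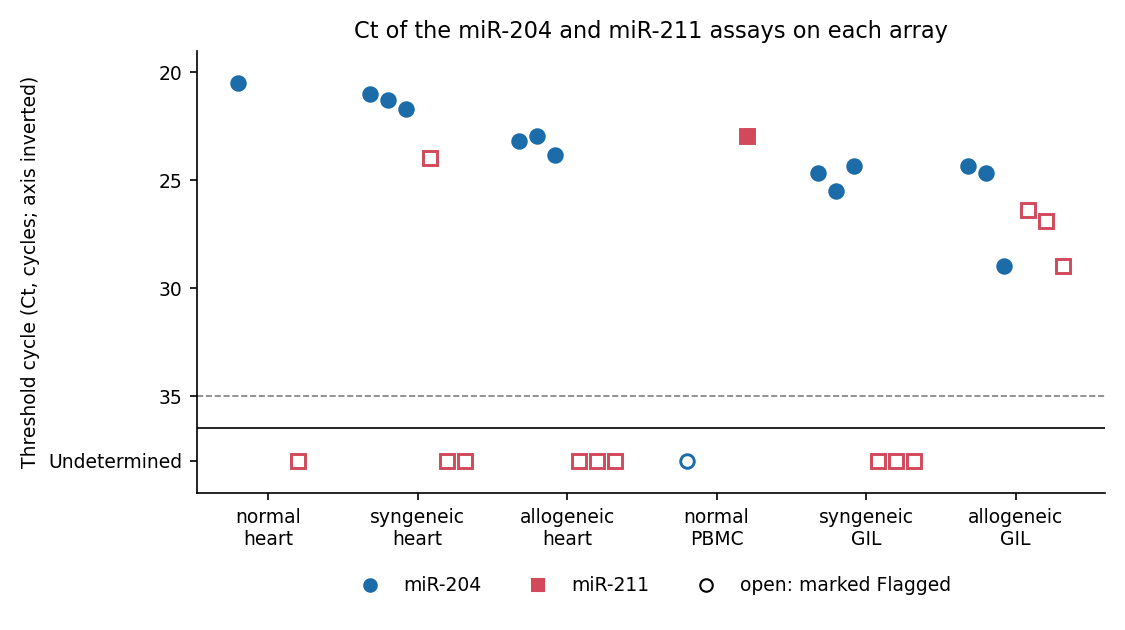
Threshold cycle of miR-204 (circles) and miR-211 (squares) on each of the 14 arrays, by group, on an inverted axis. Open symbols are wells marked by the software, undetermined wells lie in the band at the bottom, and the dashed line is the limit of Ct 35. miR-204 has a Ct on every array except PBMC, whereas miR-211 has one on 5 arrays, of which the PBMC well is the one not marked.

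On arrays with only one of the pair, the other was far from its level. Counting an undetermined well as Ct 35, the gap between the detected assay and that limit was 11.2 to 14.5 cycles on the 6 hearts with miR-204 alone. It was 9.50 to 10.7 cycles in the syngeneic GIL pools and 12.04 cycles, in the other direction, in PBMC. On the 4 arrays with both, miR-211 came 2.95 cycles after miR-204 in syngeneic heart pool 1 and 2.07 and 2.22 cycles after it in allogeneic GIL pools 1 and 2. In allogeneic GIL pool 3 the difference was -0.004 cycles. PCR efficiencies of 2 assays differ, so these gaps describe wells and are no ratio of amounts.

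In the hearts, miR-204 was highest in the normal hearts, lower in the syngeneic grafts and lowest in the allogeneic grafts. Its Ct was 20.5 in the normal hearts. It was 21.0, 21.3 and 21.7 in syngeneic pools 1 to 3, and 23.2, 22.9 and 23.8 in allogeneic pools 1 to 3. The software passed all 7 wells, and the Ct ranges of the groups did not overlap.

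The level used below is the mean Ct of an array's reference assays (the microRNAs detected on all 7 arrays of the table) minus the Ct of the well, which makes a difference of levels a log2 fold change. The miR-204 level was 3.39 in the normal hearts. It was 1.39, 2.06 and 2.08 in the syngeneic pools (mean 1.84 ± 0.39, SD, n = 3) and -0.02, 0.15 and -0.36 in the allogeneic pools (mean -0.07 ± 0.26, SD, n = 3). Each allogeneic pool lay below each syngeneic pool, and each syngeneic pool lay below the normal hearts, as the single normal array lay outside the syngeneic range in 82.2% of the assays tested.

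The allogeneic grafts differed from the syngeneic grafts by -1.92 ± 0.28 (log2, SE), a 3.77-fold lower level. This was the 16th lowest of the 238 differences measured, whose median was 0.02. Of all assays measured in this comparison 54.2% had groups that did not overlap, and 15.1% were called lower at an adjusted p under 0.05 by limma. These shares are the background, and the contrast itself chose miR-204. On the run days that held a pool of each kind, the allogeneic level was -0.02 beside a syngeneic 1.39 on one day, a difference of -1.40. On the other it was -0.36 beside 2.06, a difference of -2.42. In the bulk tissue, fewer cells of a type and less RNA per cell cannot be told apart.

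The comparison of syngeneic grafts with normal hearts was not the one that chose the members. It shares the syngeneic pools with that one, and earlier results of these data were known. Its p-value is therefore not free of the choice. The mmu-miR-204 level was 2.92-fold lower in the syngeneic grafts, in 3 of 3 pools (log2 difference -1.55 ± 0.40, SE, adjusted p = 0.0401 by limma over 242 assays). In this comparison 7.44% of assays were called lower. The call was lost in 10 of the 18 alternatives run, with adjusted p-values of 0.0549 to 0.355, among them those without syngeneic pool 1, 2 or 3 (0.0651, 0.0811 and 0.0566) and without allogeneic pool 1 (0.0746). The strains differ as well as the surgery, and the fit gives the lone normal array the spread of the graft groups. The allogeneic grafts and the normal hearts share the BALB/c strain, and there the difference was -3.46 ± 0.40 (log2, SE), an 11.0-fold lower level.

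**Figure D2:**
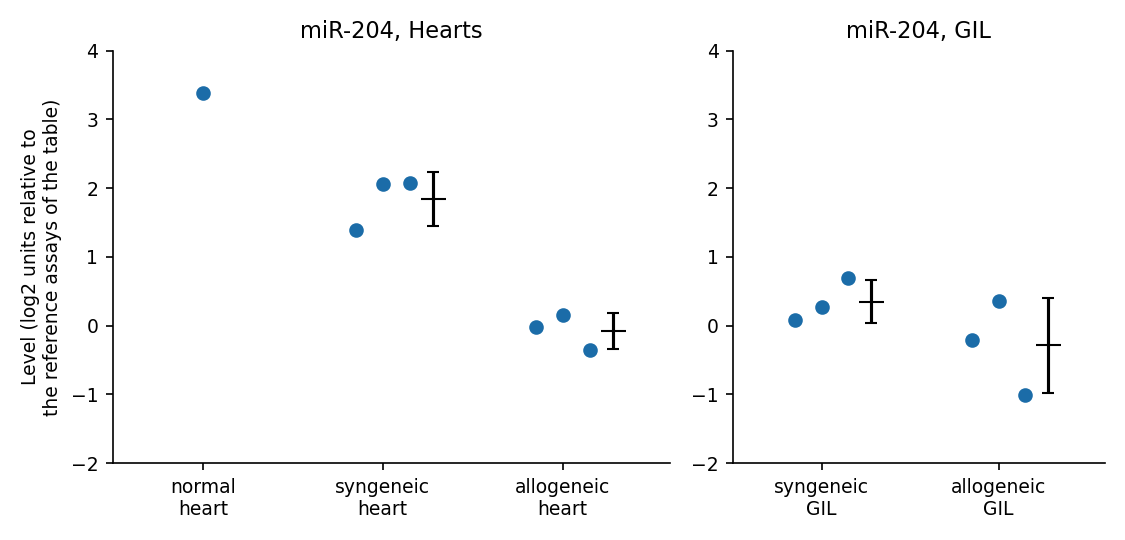
Level of miR-204 (log2, relative to the reference assays of each table) in each pool of the hearts and the GILs, with the mean and SD of each group of 3 pools beside the points. The hearts fall in the order normal (3.39), syngeneic (mean 1.84) and allogeneic (mean -0.07), the GIL groups overlap, and PBMC, which had no Ct, is not drawn.

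The authors' deposited table, scaled to snoRNA202, gave the same order of the heart groups. There the relative quantity of miR-204 against the normal hearts was 0.368, 0.508 and 0.534 in syngeneic pools 1 to 3. The authors' deposited table gave 0.114, 0.16 and 0.141 for the allogeneic pools.

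The microRNAs whose heart profile was most like that of miR-204 were, but for one, microRNAs of striated muscle. Likeness was the mean absolute difference of levels, each centred on its own mean over the 7 heart arrays, over 209 other microRNAs detected on all of them (median 1.15). The nearest was miR-1 at 0.215, an abundant microRNA of heart and skeletal muscle, followed by miR-133a at 0.224, which is transcribed with miR-1. Next came miR-676 at 0.253, the rat miR-1 assay at 0.274 and miR-208 at 0.330, which is encoded in a heart myosin gene. Since both miR-1 assays target nearly the same molecule they are not independent.

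These neighbours also differed between grafts and normal hearts by similar amounts, which the ranking used. From syngeneic to allogeneic grafts the log2 differences were -1.53 ± 0.29 (SE) for miR-1 and -1.67 ± 0.26 for miR-133a, beside -1.92 ± 0.28 for miR-204. miR-676 differed by -2.11 ± 0.29 and miR-208 by -1.48 ± 0.29. From normal hearts to syngeneic grafts miR-1 differed by -1.56 ± 0.41 and miR-133a by -1.20 ± 0.36, beside -1.55 ± 0.40 for miR-204.

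**Figure D3:**
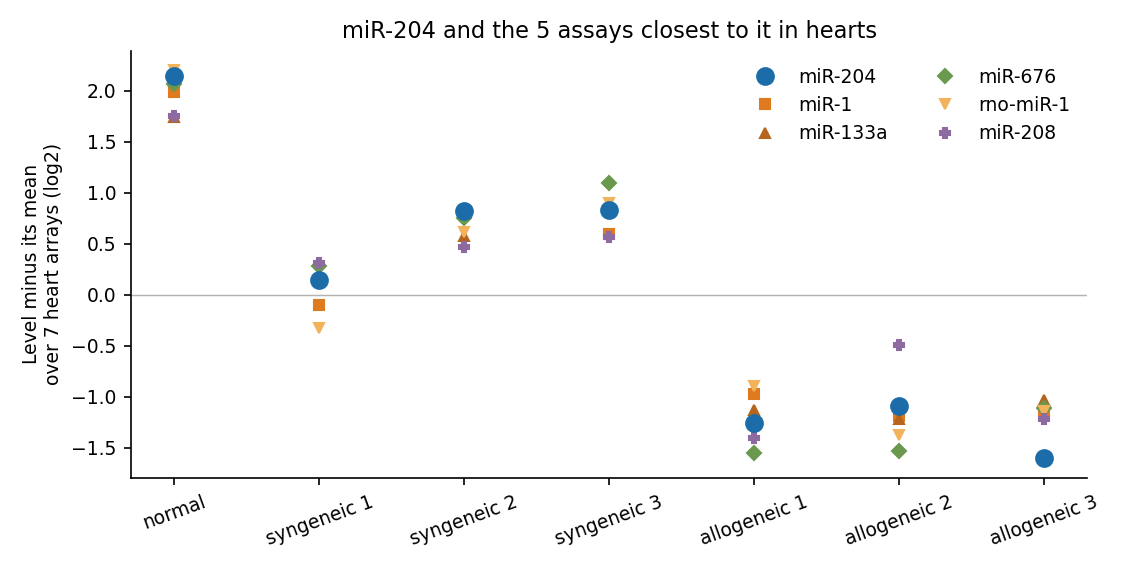
Centred levels (log2) of miR-204 and of the 5 microRNAs with the most similar profile on the 7 heart arrays. All are highest in the normal hearts and lowest in the allogeneic pools, and miR-204 runs from 2.15 in the normal hearts to -1.60 in allogeneic pool 3.

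Markers of several cell types differed in the same arrays, and others were not called. Of 6 cardiac muscle microRNAs (miR-1, miR-133a, miR-133b, miR-208, miR-208b and miR-499), 5 were lower and none higher in allogeneic than in syngeneic hearts by limma, with 15.1% of all assays called lower. Their summed level was 12.2 in the normal hearts, 10.5 to 11.3 in the syngeneic and 9.13 to 9.47 in the allogeneic pools. Both pan-leukocyte assays, miR-142-3p and miR-142-5p, were higher in the allogeneic hearts, where 17.2% of all assays were called higher, but neither was called relative to MammU6. Their summed level was 2.63 in the normal hearts, 4.83 to 5.43 in the syngeneic and 6.75 to 7.00 in the allogeneic pools. Both endothelial assays, miR-126-3p and miR-126-5p, were lower. Their summed level was 10.025 in the normal hearts, 8.553 to 9.001 in the syngeneic and 6.78 to 7.386 in the allogeneic pools. That is the order of the cardiac muscle sum and of miR-204. Both tested fibroblast assays, miR-199a-3p and miR-214, were lower. The fibroblast sum, with miR-199a-5p, was highest in the syngeneic pools (3.915 to 4.671). It was 3.407 in the normal hearts and 2.058 to 2.836 in the allogeneic pools. Of the other markers, the resting lymphocyte miR-342-3p was higher (1.30 ± 0.38, log2, SE), a call made under 2 of 6 scalings. The erythroid miR-451 was higher by 3.99 ± 0.71. The resting lymphocyte miR-150, the myeloid miR-223 and the erythroid miR-486 were called neither higher nor lower. All 18 markers except miR-199a-5p in the normal hearts were detected in every heart group. The part of these cells in the miR-204 difference was not tested.

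In the lymphocytes, miR-204 had a Ct in all 6 GIL pools and none in PBMC. The Ct was 24.7, 25.5 and 24.3 in syngeneic pools 1 to 3 and 24.3, 24.6 and 29.0 in allogeneic pools 1 to 3. The high value is that of allogeneic pool 3, an array that stands apart, with 161 microRNAs detected and a mean reference Ct of 27.95. The other lymphocyte arrays had up to 221 detected, and the heart arrays had 228 to 260. After scaling, the levels were 0.08, 0.27 and 0.70 in the syngeneic pools (mean 0.35 ± 0.32, SD, n = 3). They were -0.21, 0.36 and -1.01 in the allogeneic pools (mean -0.29 ± 0.69, SD, n = 3).

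The GIL groups overlapped. The allogeneic minus syngeneic difference was -0.64 ± 0.41 (log2, SE), beside a median of -0.24 over the 201 assays measured. Groups were apart in 57.7% of those assays. The sign turned with the scaling, to 0.18 relative to MammU6, 0.010 relative to snoRNA135 with snoRNA202, and 0.25 relative to snoRNA202, where the median of all assays moved by 0.82, 0.65 and 0.89. Without allogeneic pool 3 the difference was -0.18. No direction can be given for miR-204 between the GIL groups.

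Against PBMC the difference was large. miR-204 was undetermined in PBMC and had a measured level in 3 of 3 syngeneic GIL pools. That level was at least 4617-fold higher against the limit of Ct 35 (log2 difference 12.17 ± 0.59, SE). The bound was 1075-fold after quantile normalization, 2165-fold relative to MammU6, and 735-fold and 29480-fold with limits of Ct 32 and 38. In that comparison 28.8% of assays were called higher, and in 90.8% the PBMC value lay outside the range of the GIL pools. No test is given for miR-204, since PBMC is a single array at the limit, so the SE holds no variation of miR-204 there. The syngeneic pools also entered the contrast that chose the pair. In the allogeneic pools the bound was 2963-fold (log2 difference 11.53 ± 0.59, SE). No run day held arrays of more than one of the groups set against each other here, so run day and group cannot be told apart among lymphocytes.

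Muscle, fibroblast and endothelial markers separated GILs from PBMC as well. In GILs, 5 of 6 cardiac muscle microRNAs were detected in at least 1 pool of each group, and miR-208b on none of the 6 pools. Of the 5, miR-208 and miR-499 were at the limit in at least 1 pool of each GIL group. The cardiac muscle sum was 3.78 to 4.47 in syngeneic and 5.18 to 6.45 in allogeneic pools, against -3.69 in PBMC. Of the cardiac muscle markers, miR-133b, miR-208, miR-208b and miR-499 were at the limit in PBMC. All 3 fibroblast assays were called higher in syngeneic GILs than in PBMC, among the 28.8% of assays called so, and miR-199a-5p and miR-214 were at the limit in PBMC. Their summed level was 4.43 to 4.71 in syngeneic GILs, 1.91 to 3.13 in allogeneic GILs and -4.87 in PBMC. The endothelial sum, of miR-126-3p and miR-126-5p, was 5.789 to 6.418 in syngeneic GILs, 4.551 to 5.315 in allogeneic GILs and 0.282 in PBMC. Both pan-leukocyte assays were called lower in syngeneic GILs than in PBMC, with summed levels of 3.18 to 4.15 in syngeneic GILs, 4.98 to 5.57 in allogeneic GILs and 7.05 in PBMC. In that comparison 31.9% of all assays were called lower, and 1 of the 2 was called relative to snoRNA202, relative to snoRNA135 with snoRNA202, and after quantile normalization. Whether other cells in the GIL preparations carried the miR-204 was not tested.

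Over the lymphocyte arrays, likeness as above over 137 microRNAs picked miR-411, miR-127, miR-199a-3p, miR-145 and miR-337-5p. The miR-204 value in PBMC is the limit and not a measurement, so the likeness values depend on it and neither they nor an order are given. miR-127, miR-337 and miR-411 lie in the imprinted Dlk1-Dio3 microRNA cluster, miR-145 is a smooth muscle microRNA, and miR-199a-3p is a fibroblast marker here. All were higher in syngeneic GILs than in PBMC, by 12.87 for miR-411, 12.59 for miR-127 and 8.26 to 8.67 for the other 3 on the log2 scale, a difference the ranking used. Between the GIL groups the values of these microRNAs and of the heart neighbours were spread around the -0.64 ± 0.41 (log2, SE) of miR-204. Of the lymphocyte set, miR-411 differed by -1.97 ± 0.38, miR-127 by -2.69 ± 0.43, miR-199a-3p by -1.38 ± 0.37, miR-145 by -0.15 ± 0.44 and miR-337-5p by -2.25 ± 0.38. Of the heart neighbours, miR-1 differed by 1.66 ± 0.61, miR-133a by 1.67 ± 0.40 and miR-676, at the limit in 1 allogeneic pool, by -3.43 ± 1.11.

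Both assays had a Ct in every allogeneic GIL pool. In PBMC and the syngeneic GIL pools the mmu-miR-211 assay had the reverse of the miR-204 pattern. It was undetermined in 3 of 3 syngeneic GIL pools, had a Ct of 26.4, 26.9 and 29.0 in allogeneic pools 1 to 3, and had its lowest Ct, 23.0, in PBMC. The 3 allogeneic wells were all marked by the software and the PBMC well passed. Its level was -2.27, -1.87 and -1.01 in the allogeneic pools (mean -1.72 ± 0.64, SD, n = 3) and 0.22 in PBMC. The allogeneic difference from the syngeneic pools was a bound of 8.10 ± 0.44 (log2, SE), at least 275-fold against a limit of Ct 35. The syngeneic pools are all at the limit, so their spread is that of the reference assays. The SE holds no variation of miR-211 in that group. In this contrast, which chose miR-211, 12.4% of assays were called higher.

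The size of that bound depends on the limit, and the value itself on marked wells. With a limit of Ct 32 the bound was 4.97, and with a limit of Ct 38 it was 11.14. With marked wells set to the limit no allogeneic pool had miR-211, and the comparison gave no value. In 3 of 3 syngeneic GIL pools miR-211 was undetermined, which puts them at least 1049-fold below the PBMC well (log2 difference -10.04). The bound was 757-fold relative to snoRNA202, 2238-fold relative to MammU6, and 103-fold and 10520-fold with limits of Ct 32 and 38. No test is given, since the syngeneic pools are all at the limit and PBMC is 1 array, so neither side holds variation of miR-211. Allogeneic GILs differed from PBMC by -1.93 ± 0.64 (log2, SE), a 3.82-fold lower level. This became -9.55 with marked wells at the limit and -0.57 relative to snoRNA202.

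In hearts, miR-211 was undetermined on 6 of 7 arrays and had a Ct of 24.0 in syngeneic pool 1, in a well marked by the software. It was therefore in no heart comparison. The other syngeneic pools, all allogeneic pools and the normal hearts had no Ct. Of the other 373 microRNAs, 3 had the same heart pattern, detected in syngeneic pool 1 alone. They were miR-202-3p (Ct 27.9, marked), miR-409-5p (Ct 27.98, passed) and miR-302d (Ct 29.1, passed). No other microRNA had the lymphocyte pattern of miR-211.

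The software's marks fell differently on the paralogues. All 13 miR-204 wells with a Ct passed, from Ct 20.5 to 29.0. Of 5 miR-211 wells with a Ct, 4 were marked, from Ct 24.0 to 29.0, and the 9 undetermined wells were all marked. Among all microRNA wells, 102 of 2777 with a Ct under 30 were marked, 3.67%. The share was 1.65% at Ct 20 to 25, 6.2% at Ct 25 to 30, and 12.2% at Ct 30 to 35. Of 2102 undetermined wells 100% were marked. Of the 262 assays with any Ct under 30, 6 had at least 4 such wells marked. These were miR-741 (7 of 11), miR-667 (6 of 13), miR-294 (5 of 5), miR-197 (4 of 14), miR-491 (4 of 12) and miR-211 (4 of 5).

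**Figure D4:**
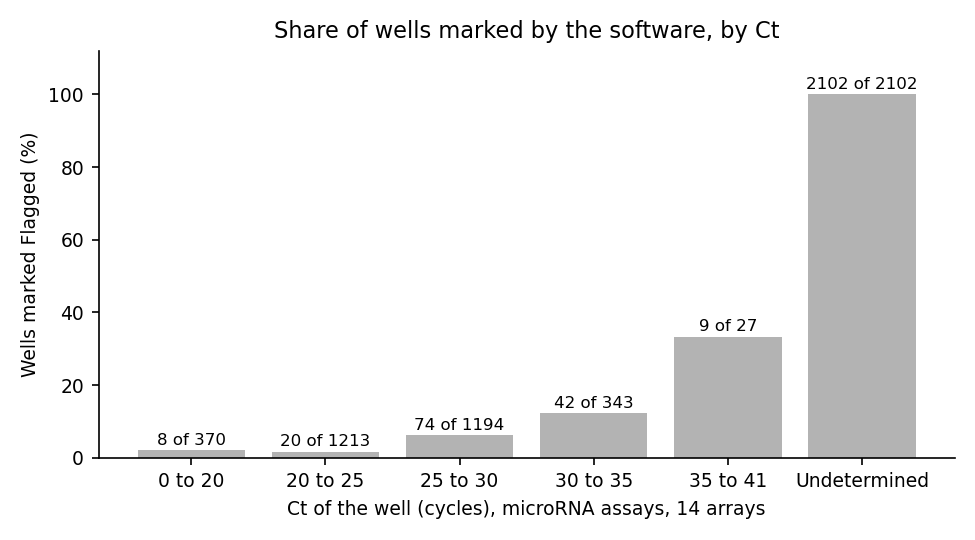
Percentage of microRNA wells marked by the software in each range of Ct and among undetermined wells, over the 14 arrays, with the number of marked wells and of all wells above each bar. The share is 2.16% below Ct 20, 1.65% at Ct 20 to 25, 33.3% from Ct 35 and 100% of undetermined wells.

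Abrupt change from a Ct under 30 to undetermined within a table was not limited to this pair. It occurred in 47 of 375 assays in hearts (12.5%) and in 79 in lymphocytes (21.1%). Among lymphocytes, 17 assays had 1 undetermined and 6 early wells, the counts of miR-204, and 5 had 3 undetermined and 4 early wells, the counts of miR-211. In hearts 8 had 6 undetermined and 1 early well, the counts of miR-211.

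The authors' deposited table shows how such wells enter a ratio. It sets undetermined wells at Ct 40, so its relative quantity of miR-204 against PBMC was 159855, 177110 and 304190 in syngeneic GIL pools. In the allogeneic pools the authors' deposited table gave 214437, 591502 and 114264. For miR-211 the authors' deposited table gave 0.381, 0.941 and 0.852 in allogeneic GIL pools, 0 in the syngeneic pools, and 35791 in syngeneic heart pool 1 against undetermined normal hearts.

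The pair was set beside 3 lists of microRNAs of related known roles, written with earlier results of these data known. The first held 10 microRNAs that, like miR-204, are known to target Runx2, a master factor of bone formation. Of 7 tested in hearts, 3 were lower and none higher in allogeneic than in syngeneic grafts (median -0.27, beside 0.02 for all assays, 15.1% of which were called lower). These were miR-135a (-3.06 ± 0.27), miR-133a (-1.67 ± 0.26) and miR-30c (-1.25 ± 0.29), all log2 differences with SE. Between syngeneic grafts and normal hearts 2 of 7 were higher, miR-34c by 3.53 ± 0.69 and miR-135a by 2.72 ± 0.38, beside 11.6% of all assays. miR-137 was called lower, with 7.44% of all assays, but 1 of the 3 syngeneic pools was at the limit, so no size is given. After quantile normalization 1 was higher and 2 were lower.

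Among lymphocytes, 5 Runx2-linked microRNAs were tested between the GIL groups. miR-133a was higher by 1.67 ± 0.40 and miR-218 differed by -1.54 ± 0.28 (log2, SE), with 12.4% of all assays called higher and 23.9% lower. Without allogeneic pool 3, 6 were tested, of which 1 was higher and 2 were lower. With all pools, the median of the 5 tested was -0.83 and turned to 0.06 relative to snoRNA202, where 1 was higher and 0 lower. Against PBMC, 4 of 7 were higher in syngeneic GILs (miR-133a, miR-135a, miR-218 and miR-34c) and miR-23a was lower, beside 28.8% and 31.9% of all assays. Relative to MammU6 the counts were 3 higher and 3 lower, and after quantile normalization 2 and 1. miR-34c was at the limit in PBMC and miR-23a in all syngeneic GIL pools, so both differences are bounds. The sign of miR-135a against PBMC turned under at least 1 other scaling, with values from -1.27 to 3.46.

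**Figure D5:**
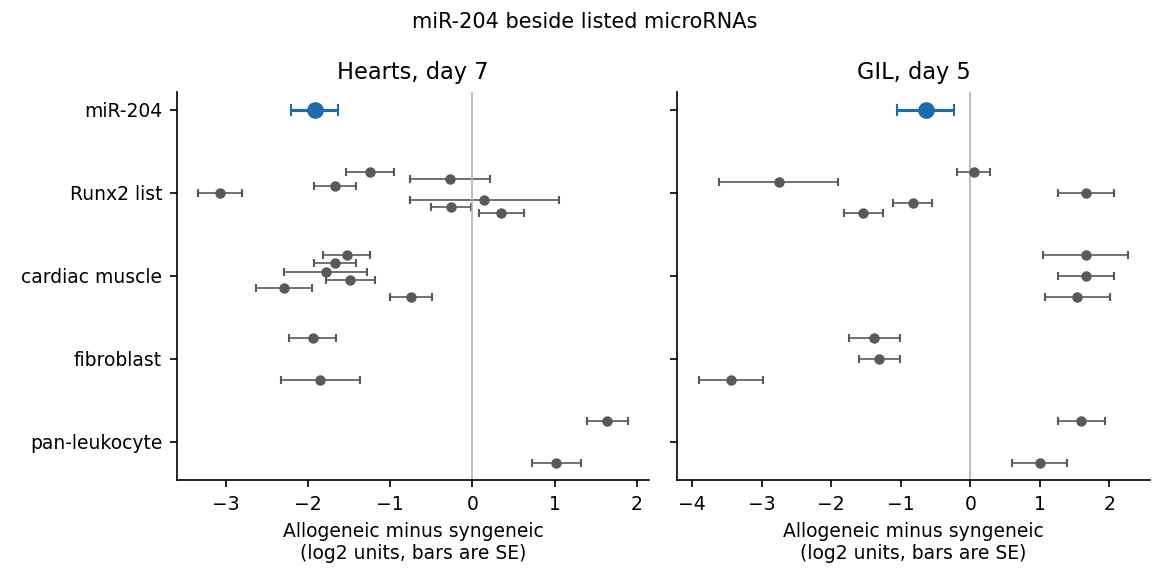
Allogeneic minus syngeneic difference (log2, bars are SE) of miR-204, of the tested Runx2-linked microRNAs and of the tested cardiac muscle, fibroblast and pan-leukocyte markers, in hearts and in GILs. In hearts miR-204 lies at -1.92 on the side of the cardiac muscle and fibroblast markers. In GILs it lies at -0.64, between the fibroblast markers and the cardiac muscle markers. The endothelial miR-126-3p and miR-126-5p, not drawn, differed by -1.64 and -1.30 in hearts and by -1.07 and -0.24 in GILs.

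The pigment cell and Mitf-linked list had 10 members, of which 9 were on the card and tested in hearts. The miR-96, miR-182 and miR-183 cluster, best known from sensory organs, was higher in allogeneic than in syngeneic hearts, by 3.40 ± 0.27, 2.64 ± 0.40 and 2.45 ± 0.48 (log2, SE). These 3 of 9 stood beside 17.2% of all assays called higher. No member was lower, beside 15.1% of all assays, and the median was 0.68, beside 0.02. Between the GIL groups 1 of 7 was higher (miR-182, by 2.95 ± 0.42) and 1 lower (miR-218), beside 12.4% and 23.9% of all assays. Relative to MammU6 or to snoRNA202, 3 were higher and 0 lower. Against PBMC 3 of 7 were higher and 3 lower in syngeneic GILs, beside 28.8% and 31.9% of all assays, and 3 were higher and 0 lower relative to snoRNA202 or to snoRNA135 with snoRNA202.

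The retina and pigment epithelium list had 6 members and shares that cluster. Of 5 tested in hearts, 4 were higher in allogeneic than in syngeneic grafts (median 2.45), miR-184 being the fourth at 1.89 ± 0.46 (log2, SE), beside 17.2% of all assays. In syngeneic grafts 3 of 5 were higher than in normal hearts, beside 11.6% of all assays, and 1 after quantile normalization. Between the GIL groups 2 of 5 were higher, miR-182 and the neuronal miR-124 (1.80 ± 0.33), beside 12.4%, and 3 relative to MammU6. Against PBMC 4 of 5 were higher in syngeneic GILs, beside 28.8%, and 2 after quantile normalization. Of the members called higher, miR-96 and miR-183 were at the limit in the normal hearts, and miR-124 and miR-183 were at the limit in PBMC. The sign of miR-182 against PBMC turned under at least 1 other scaling, with values from -0.19 to 3.11. No tested member of the last 2 lists was called lower in allogeneic than in syngeneic hearts, where the miR-204 level was 3.77-fold lower.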

How the data were processed

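Per the labels, each array received 100 ng of RNA from each of 3 animals, extracted with mirVana, taken through Megaplex reverse transcription and preamplification, and read on a 7900HT instrument. Per the file headers, the authors exported the values with SDS 2.4. The deposited Ct is in cycles. The deposited delta Ct is on a log2 scale and matched Ct minus snoRNA202 to within 5e-04, with undetermined wells at 40. The authors' relative quantity is the ratio of each array to the normal one. The software's marks are taken as deposited.

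Ct values of 35 and above, and undetermined wells, were placed at 35. Levels were centred on the reference assays of each table (210 in hearts, 137 in lymphocytes) and compared in limma (version 3.58.1, under R 4.3.3) by lmFit with eBayes, using all 3 groups of a table (two-sided tests, Benjamini-Hochberg over assays detected on every array of at least 1 group compared, threshold 0.05), after a check on simulated data. One let-7b well was left out because its sample name differed. Arrays give no counts, so their number limits the precision.

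The members, lists and markers were chosen with earlier results of these data known. The text names the members, the 5 nearest microRNAs by the measure of likeness (or those with the same detection pattern), and list members. Assays singled out by their marks were chosen after their values were seen. Alternatives were other scalings, limits of 32 and 38, no filter, only the groups compared, marked wells at the limit, run day, a replicate block and leaving out each pool. Added after seeing the data were the lists under other scalings and without allogeneic GIL pool 3.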

Additional observations from a re-analysis of the deposited data

Results flagged for a closer look

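miR-211 had a Ct of 23.97 in syngeneic heart pool 1, in a well that the software marked and that no heart comparison uses. The same assay was undetermined in the normal hearts and in the other 5 heart pools, so the signal stands above the level in the control array. The cause was not tested.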

How the results depend on the processing

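The miR-204 difference between allogeneic and syngeneic hearts kept its direction in 21 of 21 alternatives. Its call between syngeneic grafts and normal hearts was lost at -1.21 relative to MammU6, -1.61 relative to snoRNA135 with snoRNA202, -1.11 relative to snoRNA202, -1.44 after quantile normalization, and -1.55 with no filter or only the groups compared (-1.66 to -1.32 leaving out a pool). Allogeneic hearts against normal gave -2.87 relative to snoRNA202.

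Between the GIL groups miR-204 turned to 0.18, 0.010 and 0.25 relative to MammU6, snoRNA135 with snoRNA202, and snoRNA202 (-0.96 to -0.18 leaving out a pool). In the same order miR-211 gave 8.92, 8.75 and 8.99, and 4.97 and 11.14 with limits of 32 and 38. Allogeneic GILs against PBMC gave for miR-204 12.52 and 12.90 relative to snoRNA135 with snoRNA202 and to snoRNA202, 9.87 by quantiles, and 8.75 and 14.24 with limits of 32 and 38. For miR-211 they gave -0.95, -0.57 and, with marked wells at the limit, -9.55. The causes were not tested.

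Calls between heart grafts (77, of which 41 higher) were 34 relative to MammU6, 42 with no filter and 2 with run day as a fixed term, and 42 to 87 leaving out a pool, falling to 42, 45 and 43 without syngeneic pool 2, syngeneic pool 3 and allogeneic pool 1. Against normal hearts 46 became 24 relative to MammU6 (31 to 55 leaving out a pool). Between the GIL groups 73 became 31, 48 and 35 relative to snoRNA135 with snoRNA202, snoRNA202 and with no filter, and 40 to 74 leaving out a pool, with 46, 40 and 40 without syngeneic pools 1, 2 and 3. Higher and lower calls between heart grafts were 41 and 36, 42 and 23 relative to snoRNA202, and 24 and 56 by medians. Between the GIL groups they were 25 and 48, but 34 and 20, 21 and 10, 38 and 10, 36 and 39, and 34 and 31 relative to MammU6, snoRNA135 with snoRNA202, snoRNA202, medians and quantiles. Syngeneic grafts against normal hearts gave 28 and 18, but 20 and 4, 31 and 10, and 19 and 19 relative to MammU6, snoRNA202 and quantiles. Syngeneic GILs against PBMC gave 66 and 73, but 53 and 92, 63 and 35, and 63 and 31 relative to MammU6, snoRNA135 with snoRNA202, and snoRNA202.

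Pools share only a number: same-numbered deviations correlated at -0.04, -0.29 and 0.12 in hearts and 0.19, 0.23 and -0.16 in GILs. With the replicate block 46 assays were called between heart grafts and 55 between the GIL groups. The miR-204 difference in hearts was -1.92 and in GILs -0.64, and miR-211 gave 8.10. Run day as a fixed term could not be fitted in GILs, and the replicate block gives no value against the normal arrays.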
